A study of Homo sapiens with 2 samples.

Results

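The genes described here are 10 components of transforming growth factor beta (TGF-beta) signalling, namely the ligands TGFB1 and TGFB2, the matrix protein LTBP2, the pseudoreceptor BAMBI, the inhibitory SMADs SMAD6 and SMAD7, the SMAD corepressors SKI and SKIL, and the ubiquitin ligases SMURF1 and SMURF2. The genes were listed by name with earlier results of these data known, so shares set beside those of all genes are descriptions. Every probe set that the platform annotation assigns to one of them was taken. This gave 25 probe sets of 49395 in all, from 10 genes of 18132 represented. Each of the 25 carried 1 gene symbol, and 0 probe sets naming one of these genes also named another.

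The study asked which genes the transcription factor EGR1 regulates in lung cancer cells. H1299, an established p53-null human non-small cell lung carcinoma line, was transiently transfected using a lipid reagent with a pcDNA3.1 plasmid carrying EGR1 or, as the control, with the empty pcDNA3.1 plasmid, and RNA was taken after 48 hours. Biotin-labelled cRNA from 2 µg of total RNA was hybridised to 1 Affymetrix array per group. All cells in a dish enter such a sample, transfected or not, and the share that took up the plasmid was not analysed here.

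TGF-beta ligands are secreted in latent complexes held in the matrix by latent TGF-beta binding proteins. Once freed, they bind receptor serine/threonine kinases that phosphorylate the receptor-activated SMADs, which enter the nucleus with SMAD4 and bind DNA. The pathway is known for its feedback: SMAD6 and SMAD7 are induced by BMP and TGF-beta signals and block the receptors, often by recruiting SMURF ligases, while SKI and SKIL hold SMAD complexes in a repressed state. In early epithelial tumours TGF-beta is known to restrain growth, and in advanced carcinoma to promote invasion. EGR1 is a zinc-finger activator that binds GC-rich sites, and TGFB1 is known from other systems as one of its target genes.

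With 1 array in each group there was no replicate error and no test could be made. Each difference is the log2 level in the EGR1 array minus that in the empty-vector array and describes these 2 arrays alone. The levels are log2 values from RMA, the authors' normalization, in which background is removed, arrays are brought to one distribution and the readings of several probes are merged into 1 value. Levels of different probe sets are not on a common scale of RNA amount, so only the 2 readings of one probe set were compared. RMA gives no detection call, so probe sets whose mean level was among the lowest 40% (under 5.22 on the log2 scale) were treated as under a floor. The brightest probe set stood for its gene, and 12652 genes lay past the floor. Repeat readings exist only where a gene has several probe sets. For probe sets past the floor their pooled SD was 0.15 on the log2 scale over 7113 genes. It describes differences between probe sets of one gene and holds no replicate error.

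The transfected gene and the cell type were checked first. Of 6 EGR1 probe sets 2 were higher in the EGR1 array, by 13.3-fold and 6.76-fold, from empty-vector readings of 7.70 and 7.17. The other 4 were lower, by 1.15-fold to 1.31-fold (log2 differences from -0.39 to -0.20). In the empty-vector array these 4 read 9.70 to 10.51. The brightest of the 6, 11717860_a_at, read 10.12 in the EGR1 array and 10.51 in the empty-vector array. By the brightest probe set, the rule used for every gene here, EGR1 was thus 1.31-fold lower. KRT8, KRT18 and VIM, markers fixed for a carcinoma line, were past the floor, with differences of 2.00, 1.76 and -0.069, whereas EPCAM was not. The lung epithelial markers NKX2-1, SFTPB and SFTPC read above the floor in both arrays, at 6.01 to 6.41 on the log2 scale. The fibroblast marker PDGFRB and the endothelial marker VWF read in the same range, from 6.04 to 6.21. Readings at this level therefore do not single out lung epithelium or show that these genes were expressed. Of 9 markers of leukocytes, fibroblasts and endothelium 4 were past the floor, namely CD68, PDGFRB, PECAM1 and VWF. CD68 read 8.36 in the EGR1 array and 8.24 in the empty-vector array. PTPRC, LYZ, COL1A1, COL3A1 and CDH5 were under the floor, and the differences of the 9 ran from -0.18 to 0.20. The part of other cell types in the results was not tested.

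The 10 genes did not move together. By brightest probe set LTBP2, SMAD7 and SMAD6 were higher in the EGR1 array and SMURF2 was lower. TGFB1, SKI, SKIL and SMURF1 differed by 0.15 or less on the log2 scale. Other probe sets past the floor differed by up to 0.18 for SKI and 0.23 for SMURF1. The SMAD6 and SMAD7 probe sets past the floor read from 5.15 to 6.43. That is close to or below the marker readings that do not show expression. TGFB2 and BAMBI lay under the floor in both arrays. In RNA from a whole dish, a change in fewer cells and a smaller change in every cell cannot be told apart. Among the 8 genes above the floor, 1 was higher by 1.5-fold or more (0.941% of all such genes were) and 0 were lower by that much (0.229%). At the looser 1.2-fold threshold 3 were higher (7.07% of all genes) and 1 was lower (5.85% of all genes). None of the 8 reached 2-fold in either direction (0.356% of all genes did). The median difference over the 10 genes was 0.035, against 0 over all 18132 genes. Over the 8 past the floor it was 0.11, against -0.016 over all 12652.

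The 250 bases upstream of the transcription start are given for 4 of the genes (RefSeq, GRCh38.p14, gene strand, 5′ to 3′). They were chosen with both motifs and differences known. TGFB1 (difference 0) and SMURF1 (0.15) hold the EGR1 motif more than once, and LTBP2 (0.67) and SMAD6 (0.38) hold none. The contrast between these 4 thus comes from the choice, and whether motif and difference are related was not tested. Capitals mark the EGR1 motif GCGNGGGCG on either strand, or the SMAD palindrome GTCTAGAC. The windows are TGFB1 at chr19:41353923-41354172 on the minus strand, SMURF1 at chr7:99144109-99144358 on the minus strand, SMAD6 at chr15:66701986-66702235 on the plus strand and LTBP2 at chr14:74612238-74612487 on the minus strand.
TGFB1: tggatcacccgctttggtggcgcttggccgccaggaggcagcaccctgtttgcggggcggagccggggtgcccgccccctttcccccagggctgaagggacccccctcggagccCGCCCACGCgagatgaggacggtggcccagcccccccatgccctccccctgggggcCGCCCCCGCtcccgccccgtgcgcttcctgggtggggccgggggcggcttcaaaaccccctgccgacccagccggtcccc
SMURF1: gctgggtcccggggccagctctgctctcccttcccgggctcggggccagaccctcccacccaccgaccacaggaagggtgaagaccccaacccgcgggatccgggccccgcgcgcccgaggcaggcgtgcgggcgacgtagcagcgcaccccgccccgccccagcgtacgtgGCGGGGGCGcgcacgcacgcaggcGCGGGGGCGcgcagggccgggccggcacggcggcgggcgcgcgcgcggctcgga
SMAD6: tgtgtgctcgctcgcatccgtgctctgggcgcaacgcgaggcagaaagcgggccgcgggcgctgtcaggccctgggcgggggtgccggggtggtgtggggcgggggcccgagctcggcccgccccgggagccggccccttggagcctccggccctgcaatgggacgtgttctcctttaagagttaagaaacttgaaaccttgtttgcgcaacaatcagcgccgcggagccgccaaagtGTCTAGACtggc
LTBP2: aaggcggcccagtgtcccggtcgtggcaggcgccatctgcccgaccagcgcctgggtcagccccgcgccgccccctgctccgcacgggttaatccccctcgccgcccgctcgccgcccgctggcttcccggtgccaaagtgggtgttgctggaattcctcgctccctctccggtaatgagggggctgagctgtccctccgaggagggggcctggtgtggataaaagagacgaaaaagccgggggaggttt

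The EGR1 motif was present in 3 of the 9 genes with a promoter window. It was present in 8.41% of all 35116 windows of the same length, a share of windows and not of genes, since a gene can have several. TGFB1 held it 2 times, 136 to 128 and 80 to 72 bases before the start, both on the opposite strand. SMURF1 held it 2 times on its own strand, 78 to 70 and 54 to 46 bases before the start, and SKIL held it 1 time, 147 to 139 bases before the start on the opposite strand. These 3 genes had differences of 0, 0.15 and 0.070. LTBP2, SMAD6, SMAD7, SMURF2, TGFB2 and BAMBI had no match in these letters. The SMAD palindrome lay in the SMAD6 window, 12 to 5 bases before the start, and in 0.182% of all windows. SMAD7 has 3 windows in the table, for 3 starts, and none held either motif. SKI was the gene with no window. The GC box GGGGCGGGG, searched on both strands and present in 15.1% of all windows, occurred 4 times in the SMURF2 window and 2 times in the SMURF1 window, with some boxes overlapping each other and none overlapping an EGR1 motif, and 1 time each in SMAD6 and BAMBI. The CAGA box, searched as CAGACA on both strands and present in 13.6% of windows, occurred in TGFB2 alone of the 9 genes, 53 to 48 bases before the start. The windows of SMURF2, SMURF1, BAMBI, SKIL and TGFB1 were 82%, 81.2%, 81.2%, 78.4% and 76.8% G and C, against a median of 58% over all windows. Those of LTBP2 and SMAD6 were 68.8% and 68%, that of TGFB2 was 50.4%, and the SMAD7 windows were 48%, 58.4% and 48.4%. GC-rich letters bear on how often the EGR1 motif occurs. A match is a description of these letters and not a site, and its absence says nothing about a factor.

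**Figure D1:**
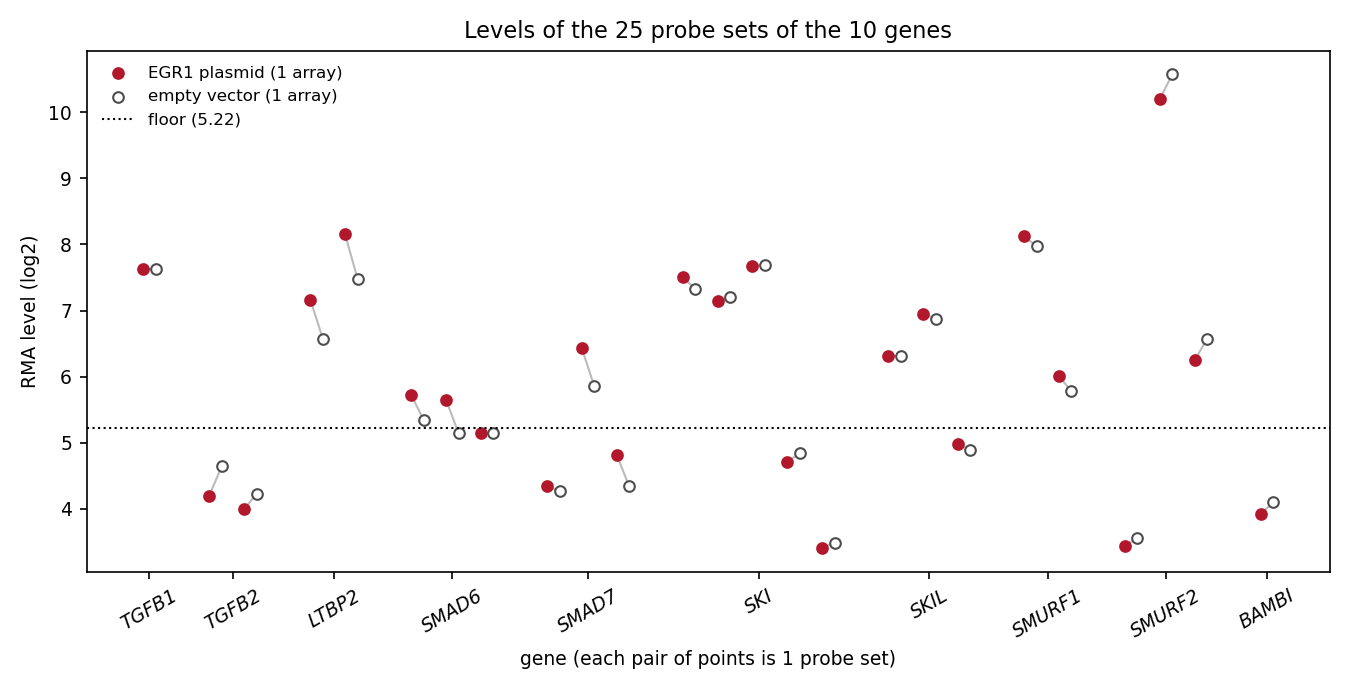
RMA level (log2, y axis) of each of the 25 probe sets, grouped by gene on the x axis; each joined pair is 1 probe set, with the EGR1 array as a filled point on the left and the empty-vector array as an open point on the right, 1 array each, so there are no error bars. The dotted line is the floor at 5.22. Both LTBP2 pairs slope down from the EGR1 point to the vector point, the 3 SMURF2 pairs slope up, and TGFB1 is level at 7.63.

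Among the ligands, the TGFB1 reading was the same in both arrays. TGFB1, the widely expressed ligand of the family, read 7.63 in the EGR1 array and 7.63 in the empty-vector array (probe set 11716385_at). The 2 values were identical to the last digit, which was so for 2613 of all probe sets (5.29%) and for 2.19% of those in its decile of levels. The origin of such identical values was not established here, so a difference of 0 is the reading and does not show that TGFB1 RNA was equal. With only 1 probe set, TGFB1 has no second reading in these arrays.

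TGFB2, another isoform of the ligand, was dim in both arrays. Its probe set 11736553_a_at read 4.20 in the EGR1 array and 4.65 in the empty-vector array, a difference of -0.45. The other, 11740596_a_at, read 3.9995 in the EGR1 array and 4.23 in the empty-vector array, a difference of -0.23. Both were lower in the EGR1 array, but all 4 readings were under the floor. In that decile of levels the middle 90% of all probe sets had differences from -0.37 to 0.38, so 1 of the pair lay outside this range and the other inside it.

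LTBP2 was the gene with the largest difference of the 10. It encodes a matrix protein of the latent TGF-beta binding family that associates with fibrillin microfibrils and, unlike its relatives, is not known to bind latent TGF-beta. Probe set 11720528_at read 8.15 in the EGR1 array and 7.48 in the empty-vector array, which is 1.60-fold higher. Probe set 11720527_at read 7.17 in the EGR1 array and 6.58 in the empty-vector array, which is 1.505-fold higher. Both probe sets were past the floor in both arrays and higher in the EGR1 array, with a mean difference of 0.63 (SD 0.060 between 2 probe sets). By its brightest probe set LTBP2 ranked 87th from the highest among the 12652 genes. The second LTBP2 probe set (0.59) lay just beyond the 1.5-fold line, which is 0.585 on the log2 scale, and SMAD7 (0.576) just short of it.

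BAMBI, a pseudoreceptor that lacks a kinase domain and blocks receptor complexes, read 3.93 in the EGR1 array and 4.10 in the empty-vector array. Its 1 probe set was under the floor in both arrays, and its difference of -0.17 lay within the middle 90% of probe sets of like level. Its RNA was not measured well enough here to say whether it differed.

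The inhibitory SMADs were both higher in the EGR1 array by their brightest probe sets. SMAD7 blocks TGF-beta and activin receptors and is a textbook target of the pathway it restrains. Probe set 11725514_a_at read 6.43 in the EGR1 array and 5.85 in the empty-vector array, which is 1.49-fold higher. Both readings lay close to those of the cell type markers that do not show expression. Probe set 11748986_a_at read 4.82 in the EGR1 array and 4.34 in the empty-vector array, a difference of 0.48 at levels under the floor. The dimmest, 11725513_a_at, read 4.34 in the EGR1 array and 4.27 in the empty-vector array, a difference of 0.068. All 3 were therefore above 0, but only 1 was past the floor. The SD between the 3 (0.27) is not like the pooled SD of 0.15, which covers probe sets past the floor alone. With the mean of the 3 probe sets SMAD7 differed by 0.37 in place of 0.58.

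SMAD6, which acts mainly against BMP receptors, was 1.30-fold higher. Probe set 11730337_at read 5.72 in the EGR1 array and 5.34 in the empty-vector array. Probe set 11730338_a_at read 5.65 in the EGR1 array and 5.15 in the empty-vector array, which is 1.42-fold higher. The third, 11730339_a_at, read 5.14 in both arrays, identical to the last digit and under the floor. Thus 2 of 3 SMAD6 probe sets were higher, from levels close to the floor. The reading of 5.15 in the empty-vector array was itself under it. By brightest probe set SMAD7 ranked 125th and SMAD6 351st from the highest among 12652 genes.

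The corepressors differed little. SKI, the cellular form of a retroviral oncogene product that binds SMAD complexes, had 5 probe sets with differences from -0.13 to 0.18. The brightest, 11734995_x_at, read 7.67 in the EGR1 array and 7.69 in the empty-vector array. Probe set 11734993_at read 7.51 in the EGR1 array and 7.32 in the empty-vector array, a difference of 0.18, and 11734994_s_at read 7.14 in the EGR1 array and 7.20 in the empty-vector array. The 3 probe sets past the floor thus went both ways, and when probe sets of the _x_at and _s_at types, which can bind related transcripts, were left out, SKI differed by 0.18 in place of -0.016. The other 2 read under the floor, with differences of -0.13 and -0.084.

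SKIL encodes SnoN, the close relative of SKI that TGF-beta both degrades and induces. Probe set 11741553_a_at read 6.95 in the EGR1 array and 6.88 in the empty-vector array. Probe set 11727181_a_at read 6.31 in both arrays, identical to the last digit, and 11755242_a_at, under the floor, read 4.98 in the EGR1 array and 4.89 in the empty-vector array. The differences of 0 to 0.086 were all below the pooled SD between probe sets.

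The 2 SMURF genes, which encode HECT-type ubiquitin ligases that mark SMADs and receptors for degradation, differed in opposite directions. SMURF2 was lower in the EGR1 array by each of its 3 probe sets. The brightest, 11723821_a_at, read 10.20 in the EGR1 array and 10.57 in the empty-vector array, which is 1.29-fold lower. The second, 11748382_a_at, read 6.25 in the EGR1 array and 6.57 in the empty-vector array, which is 1.25-fold lower. The third, 11723820_a_at, read 3.44 in the EGR1 array and 3.56 in the empty-vector array, far under the floor. The mean difference was -0.27 (SD 0.13 between 3 probe sets). In the brightest decile of levels the middle 90% of all probe sets ran from -0.22 to 0.20, and the brightest SMURF2 probe set (-0.37) lay below that range. SMURF2 ranked 255th from the lowest among 12652 genes.

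SMURF1 was slightly higher in the EGR1 array. Probe set 11722957_a_at read 8.12 in the EGR1 array and 7.97 in the empty-vector array, a difference of 0.15. Probe set 11736974_a_at read 6.01 in the EGR1 array and 5.78 in the empty-vector array, a difference of 0.23. Both lay within the middle 90% of probe sets of like level. The SMURF1 differences ran from 0.15 to 0.23 and those of SMURF2 from -0.37 to -0.13. The SMURF2 value of -0.13 is that of its probe set far under the floor. Whether the 2 genes respond differently cannot be tested with 1 array per group.

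**Figure D2:**
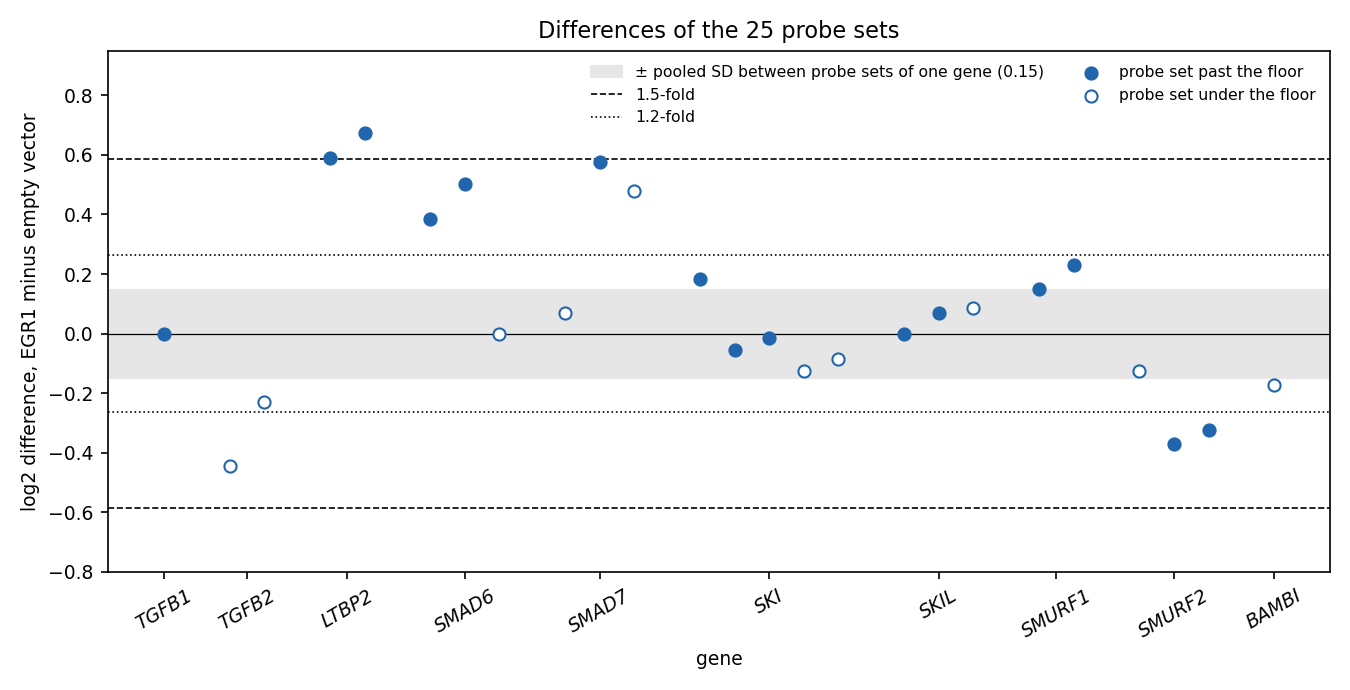
Log2 difference, EGR1 array minus empty-vector array (y axis), of each probe set by gene (x axis); filled points were past the floor and open points under it. The grey band is 0 ± the pooled SD between probe sets of one gene (0.15), taken over probe sets past the floor. Dashed and dotted lines mark 1.5-fold and 1.2-fold. Both LTBP2 points lie above the upper dashed line and all 3 SMURF2 points lie below 0.

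Across the 25 probe sets 12 were above 0, 10 below and 3 at exactly 0, with a range from -0.45 to 0.67. Of all 49395 probe sets 45.9% were above 0 and 5.29% at 0, so the share of the 25 above 0 was near that of the whole array. In the 15 past the floor 9 were above 0, 4 below and 2 at 0. Each probe set was also set beside all probe sets in the same decile of mean levels. By construction 10% of all probe sets lie outside the middle 90% of their decile, and 8 of the 25 did (32%), 6 above it and 2 below it. The 6 were both LTBP2 probe sets, 2 of SMAD6 and 2 of SMAD7, and the 2 were 1 of TGFB2 and 1 of SMURF2. Probe sets of one gene may share transcripts, so the 8 stand for 5 genes and were not taken as 8 independent readings.

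**Figure D3:**
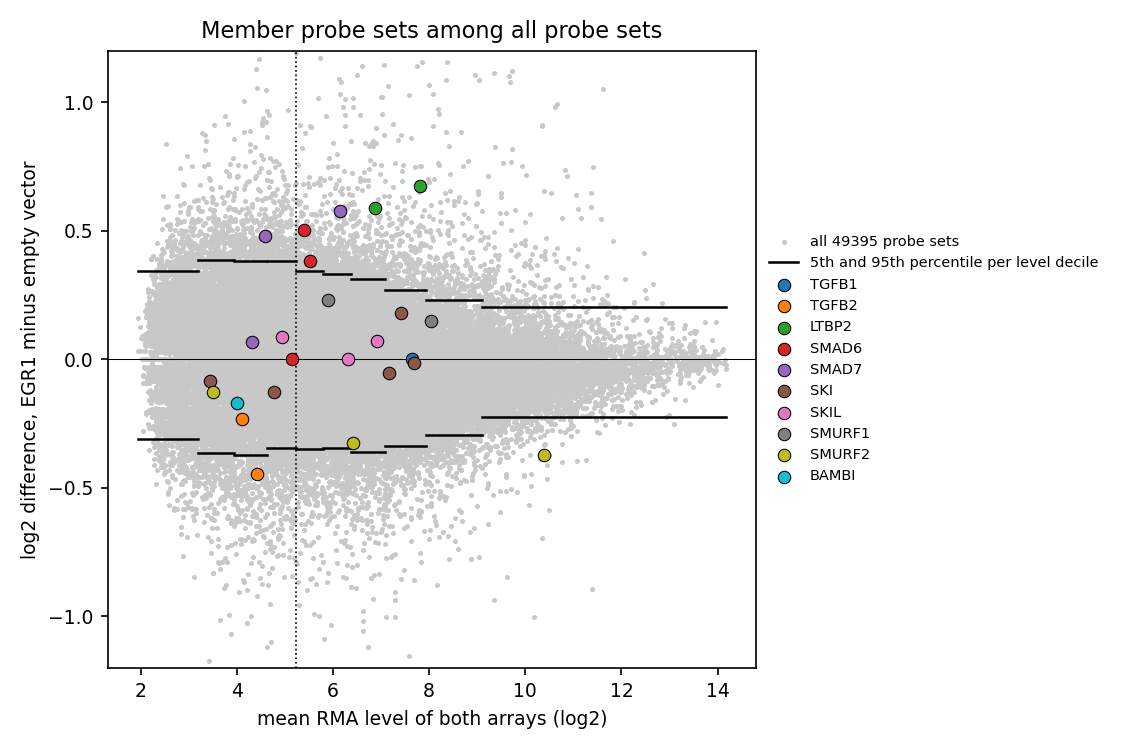
Log2 difference (EGR1 array minus empty-vector array, y axis) against the mean log2 level of both arrays (x axis) for all 49395 probe sets in grey, with the 25 member probe sets coloured by gene. Black steps are the 5th and 95th percentile of each decile of levels, the dotted line is the floor, and 89 probe sets beyond ±1.2 are not drawn. Both LTBP2 points, 2 of 3 SMAD6 points and 2 of 3 SMAD7 points lie above the upper steps, and 1 TGFB2 point and the brightest SMURF2 point lie below the lower ones.

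The remainder of the pathway was described from 139 further TGF-beta and BMP genes in 8 role lists, which were drawn up with earlier results of these data known, so their counts are descriptions only. Of these, 131 had a probe set of their own and 103 were past the floor. At 1.5-fold 12 were higher (11.7%, against 0.941% of all genes) and 0 were lower (0.229% of all genes), and 11 of the 12 were listed as transcriptional targets. The other was the ligand GDF15.

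Among 14 other ligands past the floor GDF15, a stress-induced distant member of the family, was the 1 at or beyond 1.5-fold, and it read 10.24 in the EGR1 array and 7.64 in the empty-vector array. Its 4 probe sets past the floor ran from 0.094 to 3.26. Of 8 latency and activation genes 0 reached 1.5-fold. LTBP3, a relative of LTBP2 that does bind latent TGF-beta, differed most (1.23-fold higher), with 0.25 to 0.31 over its 4 probe sets. LTBP2 (0.67) lay above every one of these 8. Of 14 receptors and co-receptors 0 reached 1.5-fold, and the BMP receptor BMPR1B differed most, reading 5.90 in the EGR1 array and 6.33 in the empty-vector array. Of the 8 SMADs and anchors that carry the signal 0 reached 1.5-fold by brightest probe set. Another SMAD2 probe set past the floor differed by 0.64. By brightest probe set the common partner SMAD4 differed most of the 8 (1.29-fold higher). Its 6 probe sets past the floor went both ways, from -0.29 to 0.37.

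By brightest probe set the 7 extracellular antagonists past the floor held 0 at 1.5-fold, and the activin-binding follistatin FST differed most (0.34). Another FST probe set past the floor differed by 0.90. Nor did any of the 19 intracellular regulators reach 1.5-fold, a list that holds 4 relatives of the SMURF ligases. Like those of SMURF2, the probe sets past the floor of 3 of these relatives, named after their values were seen, were all below 0, with 7 of NEDD4L (-0.43 to -0.088), 3 of WWP1 (-0.46 to -0.17) and 4 of ITCH (-0.35 to -0.13). Of all probe sets past the floor 54.5% were below 0. In the level deciles 8, 9 and 10, the brightest, the median differences of all probe sets were -0.037, -0.062 and -0.042. Probe sets of one gene may share transcripts, and the share of all genes with every probe set below 0 was not counted. The 8 of WWP2 went both ways (-0.093 to 0.29). PMEPA1, a feedback inhibitor induced by TGF-beta that sequesters SMADs, differed most at 1.23-fold higher, and its probe sets went both ways, from -0.10 to 0.30. The medians of these 2 lists past the floor were 0.098 and 0.012, against 0.11 for the 8 of the 10 genes past the floor.

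The lists of transcriptional targets held most of the genes past 1.5-fold, though the largest difference was that of GDF15. Of 23 TGF-beta targets past the floor 8 were higher by 1.5-fold or more, 0 were lower by that much and 15 lay between, with a median of 0.27. These 8 were the transglutaminase TGM2 (3.29-fold), the metalloproteinase inhibitor TIMP1 (2.56-fold), the cytokine LIF (2.10-fold), the TGF-beta-inducible factor KLF10 (1.99-fold), the AP-1 subunit JUNB (1.87-fold), ANGPTL4 (1.70-fold), the repressor BHLHE40 (1.62-fold) and the EMT factor SNAI1 (1.58-fold). Their probe sets were not uniform, since those of TGM2 past the floor ran from 0.39 to 1.72 and those of TIMP1 from 0.11 to 1.43. Of the 15 that lay between by brightest probe set, VEGFA and IL11 had other probe sets past the floor that reached 1.33 and 1.97. CCN2, which encodes connective tissue growth factor and is among the best-known TGF-beta targets, read 12.21 in the EGR1 array and 12.38 in the empty-vector array, and its 3 probe sets were all below 0. Of 10 BMP targets 3 were higher by 1.5-fold or more and 7 lay below that, with a median of 0.37. These were the Notch and BMP target HEY1 (4.14-fold), ID2 (3.08-fold) and ID4 (2.61-fold), the ID proteins being inhibitors of basic helix-loop-helix factors. The ID4 probe sets past the floor ran from 0.22 to 1.40. Of the 7 that lay below by brightest probe set, ID1 and ID3 had probe sets past the floor that reached 0.586 and 0.65. Both values are beyond the 1.5-fold line of 0.585. Many of the listed targets also answer to other signals, and SMAD6 and SMAD7, which are themselves targets, differed by 0.38 and 0.58.

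**Figure D4:**
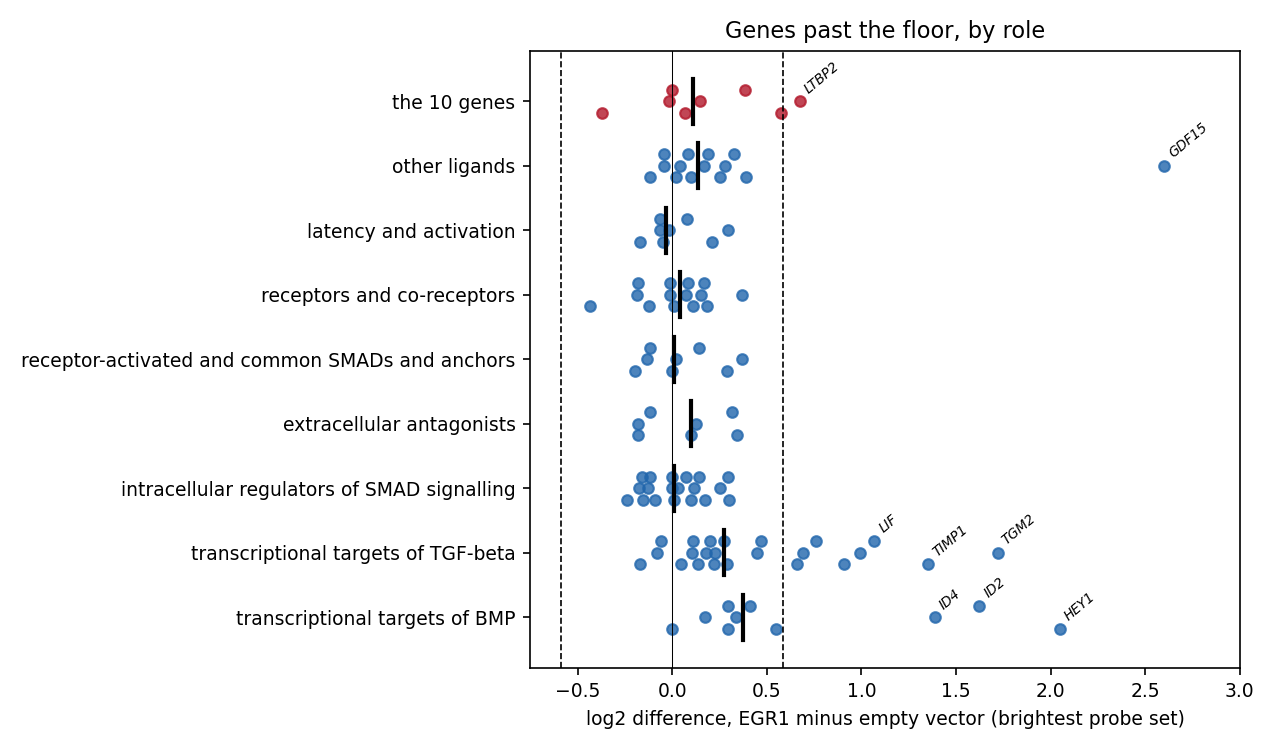
Log2 difference by brightest probe set (x axis, EGR1 array minus empty-vector array) for genes past the floor, the 10 genes in red in the top row and the 8 role lists in blue below it; each point is 1 gene, black bars are medians, dashed lines mark 1.5-fold. LTBP2 is named in the top row, and in the lists the genes higher by 2-fold or more. Of the 8 lists only those of transcriptional targets and of other ligands hold genes to the right of the upper line.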

How the data were processed

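Per the submitters' processing notes, the authors computed the deposited log2 levels with RMA. Software, settings and how many arrays were normalized as one set are not given in the labels used, and the number of arrays limits the precision. Gene names came from the platform annotation, with symbols updated through a RefSeq gene table (GRCh38.p14) by Entrez ID. Of 49395 probe sets 44988 had 1 gene symbol (44961 matched), 1832 had several, 2473 had none and 102 were controls. All 10 genes matched.

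Differences are EGR1 minus empty vector, taken on the values as deposited and without a test. The floor, the brightest probe set per gene and the folds of 1.2, 1.5 and 2 are descriptive settings. The members and lists were chosen with earlier results of these data known. The rule for named genes covered EGR1, the 10 members and pathway genes at or beyond 1.5-fold past the floor. Otherwise it covered the largest difference of each list. CCN2, VEGFA, ID1, ID3, the SMURF relatives and the genes of the closing section were named outside it, after their values were seen. Alternatives were the mean of all probe sets, no _x_at or _s_at probe sets, lowess correction (span 0.3), quantile normalization and other floors. Python 3.11.15, numpy 2.4.6, pandas 2.3.3, statsmodels 0.14.6 and matplotlib 3.10.9 were used.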

Additional observations from a re-analysis of the deposited data

How the results depend on the processing

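Of 75 values of 14 results recomputed under the alternatives, 72 stayed within the pooled SD of 0.15 between probe sets (for counts, within 1.5 times), 3 moved and 0 of the values at or beyond 1.5-fold changed sign. Among the members that last count concerns LTBP2 alone. Some of the 72 could not move. TGFB1 and BAMBI have 1 probe set each, and leaving out _x_at and _s_at probe sets returned the main value for every member but SKI. All probe sets of LTBP2 and SMURF1 were past the floor, so their mean over all probe sets and over those past the floor is 1 value counted again. Lowess correction and quantile normalization shifted member probe sets by at most 0.049 and 0.044. The 72 are therefore not 72 separate checks. With the floor at the 60th percentile the count of members at or beyond 1.2-fold was 2 in place of 4, since SMAD6 and SMAD7 then lie under the floor. Without _x_at and _s_at probe sets SKI differed by 0.18 in place of -0.016, and with the mean of all probe sets SMAD7 differed by 0.37 in place of 0.58. The sign of SKI is not settled, since it was also above 0 after lowess correction (0.026), after quantile normalization (0.019) and with the mean of its probe sets past the floor (0.037), a setting added after seeing the data, like the 1.2-fold count. LTBP2 stayed at or beyond 1.5-fold under every setting run, from 0.63 to 0.72, and SMURF2 stayed below 0, from -0.37 to -0.27. The count of pathway genes at 1.5-fold ran from 8, without _x_at and _s_at probe sets, to 14. No array could be left out, with 1 per group. No paired analysis was possible because each group has 1 array.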

Other observations

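Some pathway genes around the 10 had probe sets that disagreed far beyond the pooled SD of 0.15, and some of the larger readings rest on values under the floor. They were picked after their values were seen. IL11, a cytokine known as a TGF-beta target, read 6.25 in the EGR1 array and 4.28 in the empty-vector array by probe set 11727690_at (a difference of 1.97, with the empty-vector reading under the floor of 5.22), whereas its other 2 probe sets differed by 0.058 and 0.10. ITGB8, a subunit of the integrin that frees latent TGF-beta, read 5.51 in the EGR1 array and 3.40 in the empty-vector array by 11722503_at (a difference of 2.11), whereas its other 3 probe sets differed by 0.030 to 0.64. All 4 ITGB8 probe sets had mean levels under the floor, so the size of that difference rests on a dim reading. The pooled SD, taken over probe sets past the floor, does not cover these 4. All 3 FST probe sets were higher in the EGR1 array, by 0.34, 0.90 (against an empty-vector reading of 5.09, under the floor) and 1.06 (under the floor in both arrays), and the smallest was that of the brightest. SMAD2, which transmits the TGF-beta signal, was 1.56-fold higher by 11729654_a_at, which read 6.26 in the EGR1 array and 5.62 in the empty-vector array, while its other 6 probe sets lay between -0.14 and 0.028.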
